A study of Mus musculus with 2 samples.

Results

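The S-phase DNA replication genes are 45 genes whose products license origins, unwind and copy DNA, supply nucleotides and histones, and repair or time the copying. They were listed by symbol as known S-phase genes, by a rule that itself uses no measured value, and all 45 were among the 27998 genes counted. Their expression was measured in islet-infiltrating T cells of NOD mice, a strain that develops autoimmune diabetes, by droplet single-cell RNA sequencing with 1 library per genotype. The wild-type library came from NOD.Foxp3-eGFP females and the knockout library from NOD.Tnfrsf9-/-.Foxp3-eGFP females, which lack CD137 in every cell, and each was a pool of 6 mice aged 9 to 10 weeks. Both strains carry a reporter that makes Foxp3+ regulatory T cells (Tregs) green, and the sorted cells of a library held CD45.1+ CD8 T cells and CD45.1+ CD4+ GFP+ Tregs together, so how many of each a library holds says nothing of the islets. The comparison asks whether CD8 T cells and Tregs carried more or less S-phase message when CD137, a costimulatory receptor of activated T cells, was missing.

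Before a cell divides, origins of replication are loaded with the Mcm helicase in G1 and fired in S phase, when polymerases, the sliding clamp PCNA, nucleotide synthesis and histone supply must run together. Many of these genes are transcribed as a wave at the G1/S border under E2F factors, so their messages pile up in cells that are entering or passing through S phase. T cells are mostly resting until an antigen drives them into rapid division, and in a tissue the message of these genes therefore marks the cells that cycle at the moment of sampling.

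The promoters of 35 of the 45 genes were in the RefSeq table (GRCm38.p6), and the 250 bases before each start were searched on both strands for the E2F words TTTCCCGC, TTTCGCGC, TTTGCCGC and TTTGGCGC. An E2F word was present in 9 of the 35 promoters (25.7%), against 517 of 27025 genes (1.91%), a feature of sequence that the choice of the genes did not use. The 5 stretches shown here are those of the 9 that lie outside the annotated gene. They are printed 5′ to 3′ on the gene's strand, with 30 flanking bases where the searched stretch allows and E2F words in capitals, and come from the reference genome and not from NOD. They are shown because they span members that were lower in knockout CD8 T cells (Mcm5, Mcm6) and members that were not (Casp8ap2, Pola1), described further on.
Mcm5, chr8:75109326-75109397, plus strand, 2 overlapping words: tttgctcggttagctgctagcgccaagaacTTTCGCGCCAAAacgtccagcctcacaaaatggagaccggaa
Mcm6, chr1:128359715-128359845, minus strand, 3 words, 2 of them overlapping: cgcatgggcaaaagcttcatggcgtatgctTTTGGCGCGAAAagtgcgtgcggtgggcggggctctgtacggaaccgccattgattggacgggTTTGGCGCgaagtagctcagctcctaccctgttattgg
Dtl, chr1:191575545-191575582, minus strand, 1 word: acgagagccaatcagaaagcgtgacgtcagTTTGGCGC
Casp8ap2, chr4:32615264-32615331, plus strand, 1 word: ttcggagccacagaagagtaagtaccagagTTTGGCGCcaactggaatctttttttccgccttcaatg
Pola1, chrX:93632256-93632323, minus strand, 1 word: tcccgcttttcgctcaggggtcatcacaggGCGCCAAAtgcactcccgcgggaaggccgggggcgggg

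The NF-Y box CCAAT was found in 24 of the 35 promoters (68.6%) and in 34.5% of all genes, while the CHR word TTTGAA, which is known from genes of G2 and mitosis, was found in 5 (14.3%) and in 16.3% of all genes. Among 46 other replication genes 12 held an E2F word (26.1%), and among 27 G2/M genes 1 did (3.70%), whereas the CHR word was in 11 of the 27 (40.7%). A match of letters is a description and not a bound site. By position the 45 genes were spread over 17 chromosomes, and their longest annotated transcripts ran from 1127 to 7796 bases with a median of 3163.

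UMIs (unique molecular identifiers) each stand for a captured RNA molecule, and barcodes of 200 to 5000 genes with no more than 20% of their UMIs mitochondrial were kept, 2714 of 2804 in the wild-type and 2915 of 2991 in the knockout library, with 17750269 and 17808848 UMIs. CD8 T cells (at least 2 Cd8a or Cd8b1 UMIs and none of Cd4 or Foxp3) numbered 891 and 1200, and Tregs (no Cd8a or Cd8b1 and at least 1 UMI of Cd4, Foxp3, Il2ra or Ikzf2) 1552 and 1444. Median depth was 6076 and 5275 UMIs in wild-type and knockout CD8 T cells, and 4302 and 4308.5 in Tregs. Cd3d was detected in 93.0 to 98.5% of cells of each class, but Foxp3 itself in only 13.2 and 19.5% of Tregs (wild type and knockout), so the Treg class rests largely on Ikzf2, detected in 95.4 and 93.6%. Genes of B cells, myeloid cells, NK cells, exocrine and endocrine pancreas and red cells summed to at most 20.9 counts per 1000000 UMIs of the class (CPM) in any list, and those of endothelium and stroma to between 42.8 and 94.6 CPM. Nearly all of the latter was the single gene Pecam1. It gave 280 of 300 UMIs in wild-type and 603 of 616 in knockout CD8 T cells, and 590 of 605 and 758 of 771 in Tregs. Tnfrsf9, the deleted gene, was read 747 times in wild-type CD8 T cells (106 CPM, 95% interval 99.0 to 114) and 253 times in the knockout (32.0, 28.2 to 36.2), and 2993 times in wild-type Tregs (337 CPM) against 898 (110), log2 ratios of -1.73 and -1.61. Its reads were thus fewer in the library labelled knockout in both classes but not absent. Cell barcodes shared by the libraries numbered 16, and without them the log2 ratios of the summed level given below were -0.60 in CD8 T cells and 0.22 in Tregs.

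Since a genotype is a lone library, nothing was tested, and the exact 95% intervals describe counting error alone, leaving out how far mice differ. In CD8 T cells the 45 genes together had 22363 UMIs in the wild type, or 3188 CPM (3146 to 3230), and 16753 in the knockout, or 2118 CPM (2086 to 2151). The knockout library was lower, with a log2 ratio of knockout over wild type of -0.59 (-0.62 to -0.56). Tregs went the other way, with 19783 UMIs and 2226 CPM (2195 to 2257) in the wild type and 21098 and 2588 CPM (2553 to 2623) in the knockout, a log2 ratio of 0.22 (0.19 to 0.25). A class sum cannot tell fewer cycling cells from less message per cycling cell, so cells were counted as well.

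**Figure D1:**
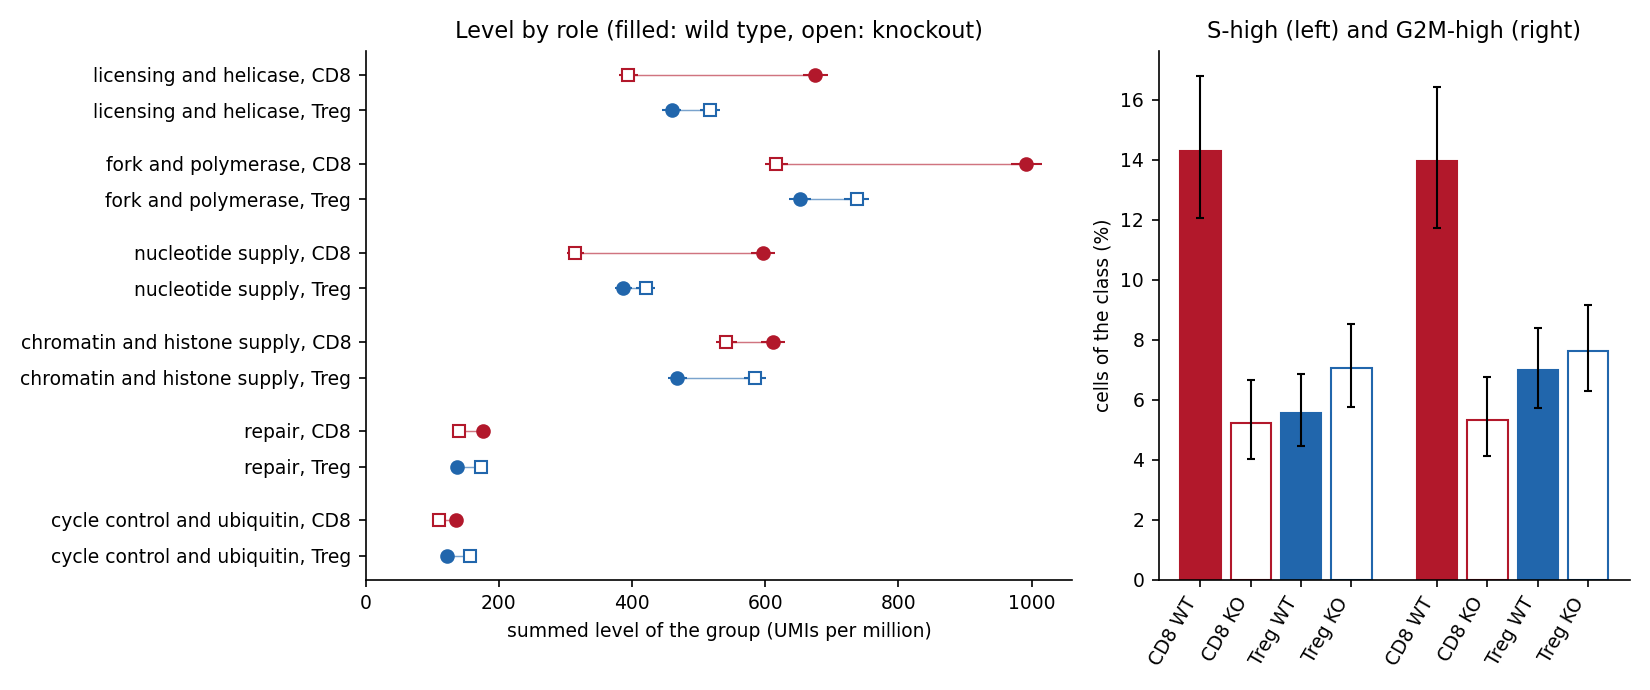
Left, summed level in CPM of the 45 genes split into 6 role groups, in CD8 T cells (red) and Tregs (blue) of the wild-type (filled) and knockout (open) libraries, with exact Poisson 95% intervals, and right, percent of cells with 10 or more of 2000 UMIs from the 45 genes (S-high, the left bars) or from 30 G2/M genes (G2M-high, the right bars), with exact binomial 95% intervals. In each role group the wild type is the higher in CD8 T cells and the knockout in Tregs, and S-high cells are 14.3 against 5.24% of CD8 T cells.

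Each cell was thinned at random to 2000 UMIs, which left out 17 and 16 shallower CD8 T cells and 76 and 55 Tregs, and a cell was called S-high if 10 or more of the 2000 belonged to the 45 genes. In wild-type CD8 T cells 125 of 874 were S-high, 14.3% (12 to 16.8), and in the knockout 62 of 1184, 5.24% (4.04 to 6.66), a difference of -9.07 percentage points (-11.8 to -6.48). In Tregs these were 82 of 1476, 5.56% (4.44 to 6.85), and 98 of 1389, 7.06% (5.76 to 8.53), and the interval of the difference of 1.5 points, -0.28 to 3.31, holds 0. Just under the cut, 16 wild-type and 14 knockout CD8 T cells had 8 or 9 such UMIs, and just above it 20 and 9 had 10 or 11. Tregs had 15 and 26 cells under it and 14 and 14 above it.

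Since the cut is made on UMIs of the same genes, the level inside S-high cells is largely set by it and is given as a description. It was 8240 CPM (7888 to 8604) in wild-type and 8556 (8049 to 9087) in knockout CD8 T cells, and 8988 (8535 to 9459) and 9235 (8814 to 9670) in Tregs. The cells that were not S-high were at 1212 (1157 to 1269) and 1111 CPM (1068 to 1156) in CD8 T cells and at 1057 and 1106 in Tregs. S-high cells were also the deep cells of each library, with medians of 14514 and 16047.5 UMIs in CD8 T cells and 14097 and 14033.5 in Tregs. S-high cells held 53.1% of these UMIs in wild-type and 29.8% in knockout CD8 T cells, and 33.3% and 38.8% in Tregs.

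**Figure D2:**
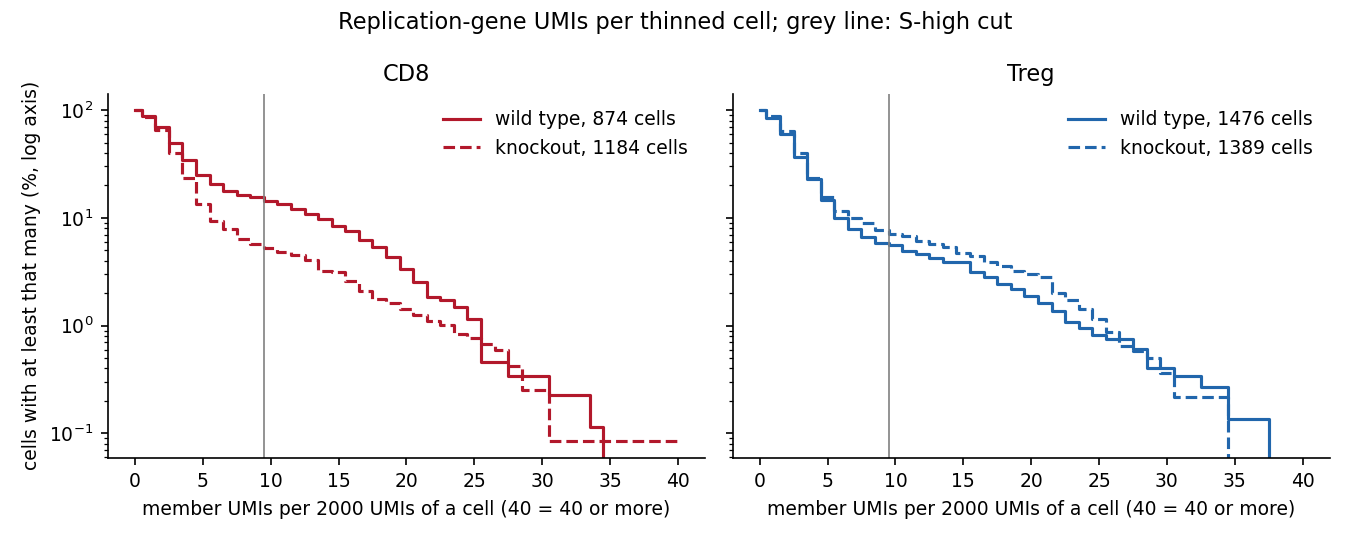
Percent of thinned cells (log axis) that hold at least the number of UMIs of the 45 genes given on the horizontal axis, out of 2000 UMIs per cell, in CD8 T cells and Tregs of the wild-type (solid) and knockout (dashed) libraries. At the grey line, the cut of 10 UMIs, the CD8 curves stand at 14.3 and 5.24% and the Treg curves at 5.56 and 7.06%.

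The libraries also differed in resting cells. Genes of naive T cells (Lef1, Ccr7, Tcf7, Klf2 and S1pr1) summed to 471 CPM (455 to 487) in wild-type and 1041 CPM (1018 to 1063) in knockout CD8 T cells, and to 364 and 468 CPM in Tregs. Cells with 3 or more of 2000 UMIs from these genes were 19.5% of wild-type and 42.5% of knockout CD8 T cells, and 10.0 and 15.7% of Tregs. Very few were S-high, 2 and 4 CD8 T cells and 2 and 2 Tregs. Among the remaining CD8 T cells the S-high share was 17.5% (14.7 to 20.5) in the wild type and 8.52% (6.53 to 10.9) in the knockout. Among the remaining Tregs it was 6.02% (4.81 to 7.44) and 8.20% (6.69 to 9.92), a difference of 2.17 points (0.16 to 4.24) whose interval leaves out 0. With the cells rich in naive genes and the cells too shallow to be thinned left out, the summed CD8 log2 ratio was -0.41 (-0.45 to -0.38). Every later value without the cells rich in naive genes leaves out the shallow cells too. The direction of the ratio was thus kept at a smaller size. Keeping cells with more than 5000 genes gave -0.43 (-0.45 to -0.40). The Treg ratio was small under every setting. It was lowest, 0.02 (-0.05 to 0.08), with a stricter lineage rule that asks each Treg for a Foxp3 UMI. That rule left 200 wild-type and 274 knockout Tregs deep enough to be thinned. For CD8 T cells it asks for more Cd8a or Cd8b1 UMIs and no Il2ra. The Treg ratio was 0.05 (0.02 to 0.08) with a narrower filter (500 to 4000 genes and mitochondrial UMIs up to 10%). It was highest, 0.26, without the cells rich in naive genes.

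Member by member, a gene was counted as lower or higher where its CPM differed by at least 1.5-fold. In CD8 T cells 25 of the 45 were lower in the knockout, where 6.8% of the 9770 genes with at least 50 UMIs were, and 0 were higher, where 11.4% of all genes were. The median log2 ratio of the 45 was -0.62, from -1.31 to 0.46, against 0.03 over all genes. Of the 45, 40 lay below 0, where 4663 of the 9770 genes did. The counting interval lay wholly below 0 for 36 members and above it for 2, Atad2 and Casp8ap2. The share of all genes with such intervals was not counted in either class, so counts of intervals have no background here. Without the cells rich in naive genes the count of lower members was 14 and the median -0.48, and with no upper limit on genes the count was 15. The share of all genes was not counted under these settings. In Tregs 0 members were lower (2.19% of 10157 genes) and 6 were higher (5.21%), Ccne2, Casp8ap2, Clspn, Blm, Pola1 and Wdr76. The Treg median was 0.22, from -0.25 to 0.84, against 0.04 over all genes. Above 0 lay 38 members, where 5583 of the 10157 genes did, with 21 intervals above 0 and 24 that hold it. With the narrower filter the Treg median was -0.0023, so the direction did not hold under that filter.

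**Figure D3:**
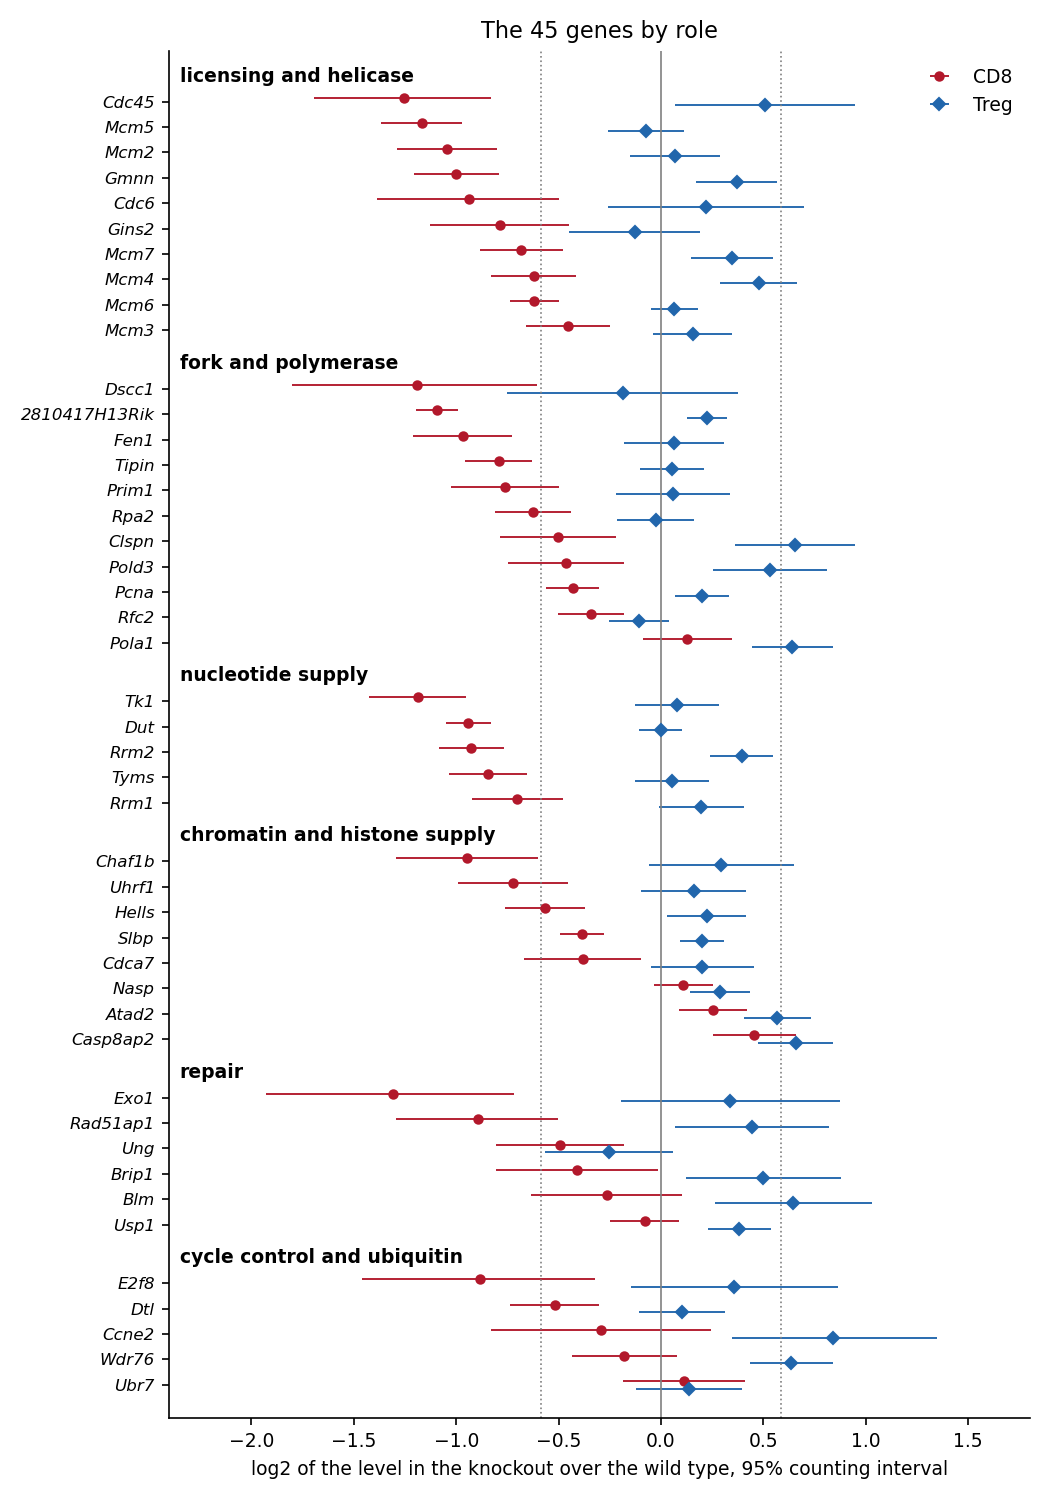
Log2 ratio of knockout over wild type for each of the 45 genes, grouped by role, in CD8 T cells and Tregs, with exact conditional 95% intervals and dotted lines at 1.5-fold. The CD8 point lies below the Treg point for each of the 45 genes, with CD8 ratios from -1.31 to 0.46 and Treg ratios from -0.25 to 0.84.

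The genes that license origins and form the helicase were lower in knockout CD8 T cells as a group. Their 10 members summed to 675 CPM (656 to 695) in the wild type and 394 (380 to 408) in the knockout, a log2 ratio of -0.78, and 9 of the 10 were past 1.5-fold. In Tregs they summed to 460 and 517 CPM, a log2 ratio of 0.17, with 0 past 1.5-fold. The shares of all genes, 6.8% lower in CD8 T cells and 5.21% higher in Tregs, are the background for each role group. Mcm6, the helicase subunit with the most UMIs of the group (chr1:128331590-128359664, minus strand), was read 1341 times in wild-type and 984 times in knockout CD8 T cells, at 191 CPM (181 to 202) and 124 (117 to 132). In Tregs it was at 142 and 148 CPM, and the intervals overlap. Mcm5 (chr8:75109569-75128439, plus strand), another subunit of the same ring, was at 91.5 CPM (84.6 to 98.9) in wild-type and 40.7 (36.4 to 45.4) in knockout CD8 T cells, a log2 ratio of -1.17 (-1.37 to -0.97), and at 57.1 and 54.3 CPM in Tregs, where the log2 ratio of -0.07 (-0.26 to 0.11) holds 0, though with the narrower filter it was -0.41 (-0.65 to -0.16). Both carry E2F words in the promoters printed above.

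Cdc45, which joins the ring to make the active helicase, had the widest gap between the classes. It was at 20.5 CPM (17.3 to 24.2) in wild-type and 8.60 (6.68 to 10.9) in knockout CD8 T cells, a log2 ratio of -1.26 (-1.69 to -0.83), and at 8.89 (7.04 to 11.1) and 12.6 (10.3 to 15.3) in Tregs, a log2 ratio of 0.51 (0.07 to 0.95). The Treg interval held 0 with the narrower filter (0.27, -0.28 to 0.82) and with no upper limit on genes (0.25, -0.14 to 0.64). Gins2, of the GINS complex that holds it in place, was at 26.4 and 15.3 CPM in CD8 T cells and at 20.2 and 18.5 in Tregs. Cdc6, which loads the ring onto origins, was at 17 and 8.85 CPM in CD8 T cells and 8.32 and 9.69 in Tregs. These 3 were read fewer than 200 times in each library and class, which makes their intervals wide. Geminin (Gmnn), which blocks a new round of licensing after S phase has begun, was at 75.8 and 37.9 CPM in CD8 T cells and 44.0 and 56.8 in Tregs, log2 ratios of -1.0 and 0.37 whose intervals lie on opposite sides of 0.

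The 11 genes of the fork and the polymerases summed to 992 CPM (969 to 1015) in wild-type and 617 (599 to 634) in knockout CD8 T cells, a log2 ratio of -0.69, and 6 were past 1.5-fold. In Tregs they were at 652 and 737 CPM, 0.18 on the log2 scale, with 2 past 1.5-fold upward. The group was led in UMIs by 2810417H13Rik, the gene of the PCNA-associated factor (chr9:65890237-65903266, plus strand), read 2297 times at 327 CPM (314 to 341) in wild-type and 1214 times at 154 (145 to 162) in knockout CD8 T cells. Its log2 ratio was -1.09 (-1.19 to -0.99) there and 0.22 (0.13 to 0.32) in Tregs, where it was at 180 (171 to 189) and 210 CPM (201 to 221). The Treg value turned to -0.15 with the narrower filter and to -0.37 with the stricter lineage rule. Pcna, the clamp itself, was at 155 and 115 CPM in CD8 T cells and 104 and 119 in Tregs.

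Dscc1, part of an alternative clamp loader that works in sister chromatid cohesion, was at 10.7 CPM (8.41 to 13.4) and 4.68 (3.29 to 6.45) in CD8 T cells, a log2 ratio of -1.19, from only 75 and 37 UMIs. In Tregs it was at 6.97 and 6.13 CPM. Rfc2, of the main clamp loader, was at 95.4 and 75.2 CPM in CD8 T cells and at 92.0 and 85.4 in Tregs. Rpa2, which covers single-stranded DNA, was at 81.3 (74.7 to 88.2) and 52.7 CPM (47.8 to 58.0) in CD8 T cells and at 55.7 and 54.7 in Tregs, the latter with overlapping intervals.

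Not every fork gene followed. Pola1 (chrX:93304767-93632155, minus strand), the catalytic subunit of the polymerase that starts each strand, was at 45.6 CPM (40.8 to 50.9) in wild-type and 49.8 (45 to 55) in knockout CD8 T cells, so the intervals overlap. Without the cells rich in naive genes its CD8 log2 ratio was 0.44 (0.21 to 0.67), against 0.13 (-0.09 to 0.34) with them. In Tregs it was at 39.9 (35.9 to 44.3) and 62.3 (57.0 to 68.0), a log2 ratio of 0.64 (0.44 to 0.84). Clspn, an adaptor of the replication checkpoint, was lower in knockout CD8 T cells (33.5 and 23.6 CPM, log2 ratio -0.50) and higher in knockout Tregs (18.6 and 29.2 CPM, log2 ratio 0.65), and both intervals leave out 0. The CD8 interval held 0 without the cells rich in naive genes (-0.18, -0.47 to 0.10) and with no upper limit on genes (-0.22, -0.46 to 0.02).

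Nucleotide supply had the largest difference of the 6 role groups in CD8 T cells and the smallest in Tregs. The interval of its Treg ratio, 0.05 to 0.19, overlaps those of the licensing and fork groups. Its 5 members (Tyms, Rrm1, Rrm2, Dut and Tk1) summed to 596 CPM (579 to 615) in the wild type and 315 (302 to 327) in the knockout, a log2 ratio of -0.92, and all 5 were past 1.5-fold. In Tregs they summed to 387 and 420 CPM, a log2 ratio of 0.12 with 0 past 1.5-fold. Dut, which removes dUTP so that uracil is kept out of DNA, was read 1846 and 1084 times in CD8 T cells, at 263 CPM (251 to 275) and 137 (129 to 145), and at 168 and 168 CPM in Tregs, a log2 ratio of -0.00 (-0.11 to 0.10). In Tregs the ratio was -0.18 (-0.32 to -0.05) with the narrower filter and -0.29 (-0.53 to -0.05) with the stricter lineage rule.

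Tk1, the salvage kinase for thymidine, was at 63.9 (58.1 to 70.1) and 28.1 CPM (24.5 to 32.0) in CD8 T cells, a log2 ratio of -1.19 (-1.42 to -0.95), and at 45.4 and 48.0 in Tregs. Rrm2, the subunit of ribonucleotide reductase whose level follows S phase, was at 127 (119 to 136) and 67.0 CPM (61.4 to 73.0) in CD8 T cells and at 73.1 (67.6 to 79.0) and 96.0 (89.4 to 103) in Tregs. Its log2 ratio of 0.39 in Tregs became -0.03 with the narrower filter and -0.11 with the stricter lineage rule. The thymidylate synthase gene Tyms and the large reductase subunit gene Rrm1 had log2 ratios of -0.84 and -0.70 in CD8 T cells and of 0.05 and 0.20 in Tregs.

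Genes of chromatin and histone supply had the CD8 ratio closest to 0 of the role groups, with an interval that overlaps those of cycle control and of repair. The 8 members summed to 612 CPM (594 to 630) in the wild type and 542 (525 to 558) in the knockout, a log2 ratio of -0.18 (-0.24 to -0.11), with 2 past 1.5-fold, Chaf1b of the histone chaperone CAF-1 at -0.95 and Uhrf1, which reads hemimethylated DNA behind the fork, at -0.72. In Tregs the group was at 468 and 584 CPM, 0.32 on the log2 scale, with each member above 0 and 1 past 1.5-fold. Slbp, which binds the stem-loop of histone mRNA, led in UMIs with 1500 and 1295 in CD8 T cells, at 214 (203 to 225) and 164 CPM (155 to 173), and was at 160 and 184 in Tregs. Its Treg log2 ratio of 0.20 was -0.0019 with the narrower filter.

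Casp8ap2 (chr4:32615451-32653265, plus strand), which takes part in the processing of histone mRNA, had the highest CD8 ratio of the 45, at 46.5 CPM (41.6 to 51.8) in the wild type and 63.7 (58.3 to 69.5) in the knockout. It was higher in knockout Tregs too, 47.1 (42.7 to 51.9) against 74.3 (68.5 to 80.5), and its log2 ratios were 0.46 and 0.66. Atad2, a bromodomain ATPase of chromatin, was at 75.8 and 90.4 CPM in CD8 T cells and 59.5 and 88.2 in Tregs, log2 ratios of 0.25 (0.09 to 0.42) and 0.57 (0.40 to 0.73). The histone chaperone Nasp, at 104 and 112 CPM in CD8 T cells, had a log2 ratio of 0.11 whose interval, -0.03 to 0.25, holds 0.

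The 6 repair genes were at 177 CPM (167 to 187) in wild-type and 141 (133 to 149) in knockout CD8 T cells, a log2 ratio of -0.33 with 2 past 1.5-fold, and at 137 and 172 in Tregs, 0.33 with 1 past 1.5-fold. Exo1, an exonuclease of mismatch repair and end resection, had the lowest CD8 ratio of the 45, at 11 CPM (8.66 to 13.7) and 4.43 (3.08 to 6.16), but from 77 and 35 UMIs, with a log2 ratio of -1.31 (-1.93 to -0.72). Usp1, which takes ubiquitin off PCNA and FANCD2, had the most UMIs of the group and overlapping intervals in CD8 T cells, 81.5 and 77.1 CPM, while in Tregs it was at 72.6 (67.1 to 78.4) and 94.6 (88.0 to 101). Blm, a helicase of recombination, was at 18.5 and 15.4 CPM in CD8 T cells and 11.1 and 17.4 in Tregs, the latter a log2 ratio of 0.65 (0.26 to 1.03). Ung, which cuts uracil from DNA, had the lowest Treg ratio of the 45, -0.25 (-0.57 to 0.06), at 22.5 and 18.9 CPM, and its interval holds 0. That interval left out 0 with no upper limit on genes (-0.39, -0.68 to -0.11) and with median-of-ratios factors (-0.32, -0.63 to -0.0064). It held 0 under the other alternatives that were recomputed.

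Genes of cycle control and ubiquitin were at 136 CPM (128 to 145) in wild-type and 111 (103 to 118) in knockout CD8 T cells, a log2 ratio of -0.30 with 1 of 5 past 1.5-fold, the repressor gene E2f8 at -0.88. In Tregs they were at 123 and 157 CPM, 0.35 on the log2 scale. Dtl, the substrate receptor of the ubiquitin ligase that clears licensing factors in S phase, was at 56.0 (50.6 to 61.8) and 39.1 CPM (34.8 to 43.7) in CD8 T cells and 42.9 and 46.0 in Tregs. Ccne2, a cyclin of the G1/S border, had the highest Treg ratio, 0.84 (0.35 to 1.35), at 6.30 and 11.3 CPM from 56 and 92 UMIs, and was at 8.98 and 7.33 in CD8 T cells. Wdr76 was at 38.5 (34.5 to 42.8) and 59.7 CPM (54.5 to 65.3) in Tregs with a CD8 ratio of -0.18, and Ubr7 was level in both classes, with log2 ratios of 0.11 and 0.14 and intervals that hold 0.

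Set side by side, the CD8 ratio was below the Treg ratio for each of the 45 members, and the median of the differences was -0.90, from -1.76 for Cdc45 to -0.03 for Ubr7, where the median over all genes tested in both classes was -0.02. For 13 members the CD8 interval lay below 0 and the Treg interval above it, namely Mcm4, Mcm7, Pcna, Rrm2, Hells, Rad51ap1, Gmnn, Slbp, Pold3, Cdc45, Clspn, Brip1 and 2810417H13Rik, but 0 members were past 1.5-fold in opposite directions. How many of all genes had such opposite intervals was not counted. Within a library, whose classes were prepared together, the 45 genes were higher in CD8 T cells than in Tregs in the wild type, with a log2 ratio of CD8 over Treg of 0.52 (0.49 to 0.55), and lower in the knockout, -0.29 (-0.32 to -0.26). By members, 17 of 45 were at least 1.5-fold higher in CD8 T cells in the wild type (7.37% of 10026 genes) and 0 lower (17.1%). In the knockout 0 were higher (6.57% of 10097 genes) and 7 lower (15.5%), so the number lower was near the share of all genes. The median log2 ratio of CD8 over Treg was 0.53 for the members and -0.11 for all genes in the wild type. In the knockout these medians were -0.31 and -0.15, so all genes also lay below 0 there. Without the cells rich in naive genes the CD8 over Treg ratio was closer to 0 in the knockout, -0.06 (-0.10 to -0.03), and 0.61 in the wild type.

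How closely a member is tied to cycling cells was measured by the share of its thinned UMIs that lay in S-high cells, with the cell called from the other members. In wild-type CD8 T cells this share had a median of 53.7% over the 43 members with at least 10 thinned UMIs. It was highest for Cdc6 (15 of 18 UMIs, 83.3%), Rrm2 (94 of 115, 81.7%) and Dscc1 (8 of 10, 80.0%), and lowest for Ubr7 (7 of 41, 17.1%), Atad2 (33 of 134, 24.6%) and Mcm6 (70 of 274, 25.5%). In wild-type Tregs, where S-high cells are fewer, the median was 34.3%, with Cdc6 (92.3%), Cdc45 (81.3%) and Clspn (77.8%) at the top and Ubr7 (6.85%), Casp8ap2 (11.8%) and Wdr76 (13.3%) at the bottom. The members thus ranged from messages found mostly in S-high cells to messages found mostly outside them.

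This share moved with the CD8 ratio. Across 43 members Spearman's rho between the CD8 log2 ratio and the share in S-high wild-type CD8 T cells was -0.66 (Pearson r -0.68). With the share taken from wild-type Tregs, cells that do not enter the CD8 ratio, rho was -0.64 (r -0.59). Members most concentrated in S-high cells, such as Tk1, Cdc45 and Rrm2, had low ratios, and those least concentrated, such as Ubr7, Atad2 and Casp8ap2, high ones. Exceptions lay at both ends by the share in Tregs, Clspn at 77.8% with a ratio of -0.50, and Mcm4 at 13.9%, Rpa2 at 15.5% and Mcm6 at 19.6%, each with -0.62. The Treg ratio showed no such relation with the share in CD8 T cells (rho 0.02). These are correlations across genes that share libraries, cells and depth, and they are given as a description.

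**Figure D4:**
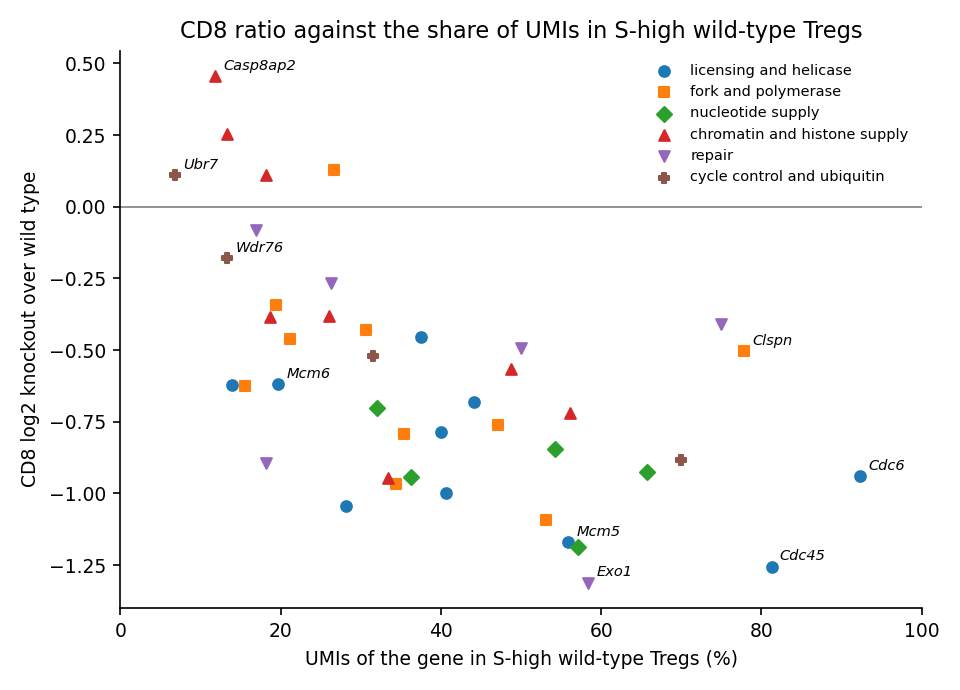
CD8 log2 ratio of knockout over wild type for 43 members, against the percent of the member's thinned UMIs that lie in S-high wild-type Tregs. Ratios go down from left to right (Spearman's rho -0.64), with Ubr7 at 6.85% and 0.11 and Cdc45 at 81.3% and -1.26.

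Transcript length moved with the ratios as well, and not only for these genes. The log2 ratio rose with log2 length with a rho of 0.40 in CD8 T cells and 0.38 in Tregs across the 45 members, and of 0.32 across 9754 genes and 0.31 across 10137 genes. With all genes put in 5 equal bins of length, from the shortest to the longest bin the median CD8 ratio went from -0.15 to 0.29 and the Treg ratio from -0.07 to 0.21. Among the members, medians in 3 equal bins of length from short to long were -0.93, -0.62 and -0.50 in CD8 T cells and 0.20, 0.20 and 0.34 in Tregs. Less the median of all genes in the same bin of length, 28 members were at least 1.5-fold lower in CD8 T cells. The median was -0.73, so the CD8 difference did not shrink. In Tregs the number of members 1.5-fold higher went from 6 to 1 at a median of 0.23. The share of all genes past 1.5-fold after this correction was not counted, so these 2 counts have no background. Long messages such as Casp8ap2 (6799 bases), Atad2 (5684) and Pola1 (5346) are those with the highest CD8 ratios, whereas Exo1, the longest at 7796 bases, has the lowest. The level of a member over both libraries was only loosely related to its ratio, with a rho of 0.17 in CD8 T cells and -0.16 in Tregs.

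**Figure D5:**
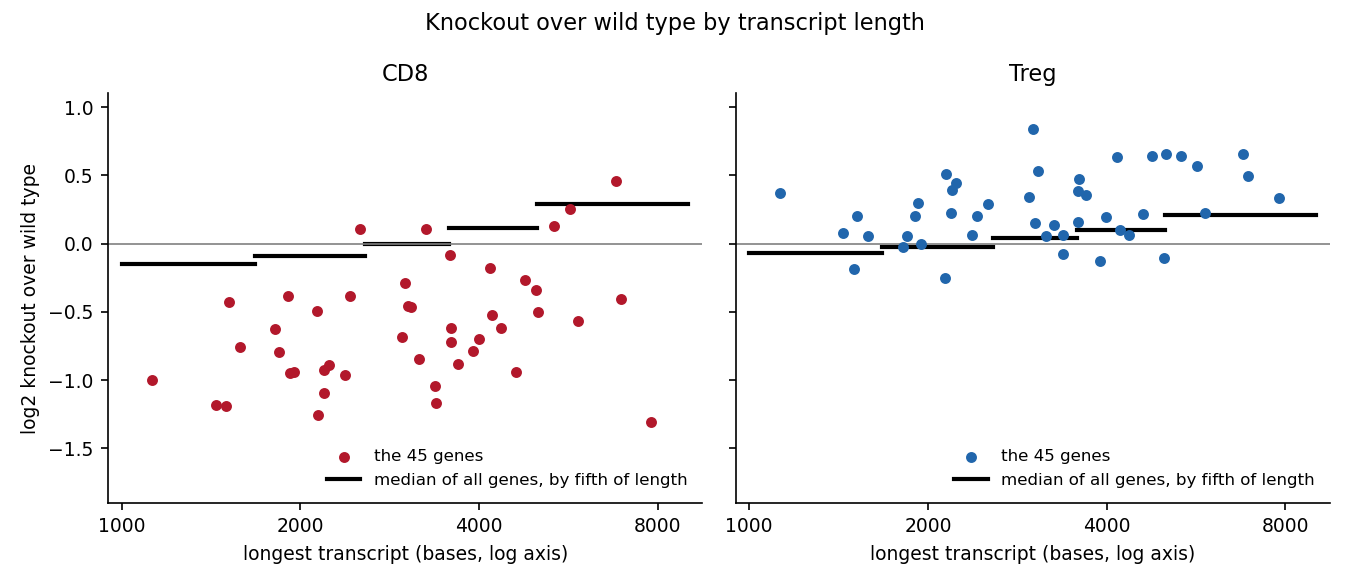
Log2 ratio of knockout over wild type against transcript length in bases (log axis), in CD8 T cells and Tregs, for the 45 members (points), with the medians of all genes in 5 equal bins of length as black bars. In CD8 T cells 42 of the 45 members lie below the median of their bin and in Tregs 39 lie above it, and the medians go up with length in both.

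Other genes of replication, none of them among the 45, went the same way at a smaller size. The 54 genes of this list summed to 2450 CPM (2414 to 2487) in wild-type and 1889 (1859 to 1919) in knockout CD8 T cells, a log2 ratio of -0.38, with 20 lower by 1.5-fold, 0 higher and a median of -0.40. In Tregs they were at 1979 and 2225 CPM, 0.17 on the log2 scale, with 0 lower and 5 higher. Of all genes, 6.8% were lower and 11.4% higher in CD8 T cells, and 2.19 and 5.21% in Tregs. Dek, a chromatin protein, led in UMIs with CD8 and Treg log2 ratios of -0.39 and 0.22, followed by Pole4, a subunit of the leading-strand polymerase (-0.25 and 0.01), and Ssrp1 of the histone chaperone FACT (-0.32 and -0.02). The list's ratio in CD8 T cells was -0.27 without the cells rich in naive genes.

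Genes of G2 and mitosis differed more than the S-phase genes in CD8 T cells. Their 30 members summed to 3785 CPM (3740 to 3831) in the wild type and 2088 (2056 to 2120) in the knockout, a log2 ratio of -0.86, with 24 lower and 0 higher. In Tregs they were at 2878 and 3170 CPM, 0.14, with 0 lower and 5 higher, from Ube2c at -0.58 to Mki67 at 1.01. The shares of all genes were 6.8% lower and 11.4% higher in CD8 T cells, and 2.19 and 5.21% in Tregs. Hmgb2, a chromatin protein with the most UMIs, was at 1467 and 739 CPM in CD8 T cells and 974 and 1069 in Tregs, Top2a, which untangles DNA, had log2 ratios of -0.51 and 0.64, and the condensin gene Smc4 had 0.20 and 0.28. G2M-high cells, called at the same cut, were 14% of wild-type and 5.32% of knockout CD8 T cells, and 6.98 and 7.63% of Tregs. Of the S-high CD8 T cells 63.2% were also G2M-high in the wild type (54.1 to 71.6) and 64.5% in the knockout (51.3 to 76.3). In Tregs these were 64.6 and 65.3%, so this overlap among S-high cells was much the same in the 4 groups. Cells that were G2M-high but not S-high were 4.92 and 1.94% of CD8 T cells, and 3.39 and 3.02% of Tregs.

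Brakes of the cell cycle were mixed in CD8 T cells. Of 14 genes 8 lay above 0 and 6 below, with a median log2 ratio of 0.13. They summed to 1860 CPM (1829 to 1893) in the wild type and 2382 (2349 to 2417) in the knockout, a log2 ratio of 0.36, and in Tregs to 2282 and 2475 CPM, 0.12. Btg1, an antiproliferative gene with the most UMIs of the list, gave much of the CD8 sum, at 1131 CPM in wild-type and 1498 in knockout cells, and was at 1311 and 1329 in Tregs. In CD8 T cells 4 were at least 1.5-fold higher (11.4% of all genes were), the Cdk inhibitor gene Cdkn1b (19.5 and 49.6 CPM, 1.34), Tob1 (1.22), Klf2 (0.98) and Btg2 (0.62), and 2 lower (6.8% of all genes), Cdkn2c (-1.31) and E2f4 (-0.63). Cdkn2c encodes a Cdk inhibitor and E2f4 a repressor, and Klf2 is also on the list of naive genes. In wild-type CD8 T cells the brakes were at 1268 CPM in S-high cells and 2304 in the others.

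Within the cells themselves, Tnfrsf9 was detected after thinning in 21 of 125 S-high wild-type CD8 T cells, 16.8% (10.7 to 24.5), and in 12.3% (10.0 to 14.9) of the others, and the intervals overlap. In wild-type Tregs it was detected in 24 of 82 S-high cells, 29.3% (19.7 to 40.4), and in 34.1% (31.7 to 36.7) of the others. The naive genes, in contrast, were at 116 CPM (77.7 to 167) in S-high and 694 (652 to 737) in other wild-type CD8 T cells, and at 298 (210 to 411) and 1316 (1268 to 1364) in the knockout. The part that naive cells, transcript length and the limit on genes per cell have in the genotype differences was not tested beyond the values given, and genotype, pool and library cannot be told apart.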

How the data were processed

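Per the labels and the methods, islet T cells of 6 pooled females per genotype were sorted and sequenced as 1 Chromium 3′ library each. The authors deposited raw counts, the UMIs of each of 27998 genes in each called cell, made with Cell Ranger 7.0.0 on mm10 per the submitters' processing notes. Whether intronic reads were counted is not given in the sources used here, and 3′ counting makes a gene's UMIs depend on reads near the transcript end.

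Cells were filtered as in the study's methods and assigned to CD8 T cells or Tregs by raw UMIs, leaving 271 cells per library in neither. No doublet caller was run. The rule keeps cells with Cd4 or Foxp3 UMIs out of the CD8 class but does not look at Il2ra or Ikzf2 there. Ikzf2 was detected in 40.3% of wild-type and 28.1% of knockout CD8 T cells, so mixed droplets may remain. UMIs were added up over the cells of a class in a library and divided by the class total (CPM). Intervals are exact Poisson (levels), exact conditional binomial (ratios), Clopper-Pearson (shares) and Newcombe (differences of shares). Nothing was tested, because a genotype is 1 library. Calls use 1.5-fold among genes with at least 50 UMIs over both libraries. Cells were thinned to 2000 UMIs with a fixed seed for shares. Gene positions and lengths came from GENCODE vM21 (27645 of 27998 identifiers matched, all 45 members) and promoters from RefSeq. The steps were tested on simulated data. Python 3.11.15, numpy 2.4.6, scipy 1.17.1, matplotlib 3.10.9, R 4.3.3 and edgeR 4.0.16 (TMM factors only) were used.

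The rule for the members uses no measured value, but the members, lists and rules were chosen with earlier results of these data known. Members named with full values were, by rule, the one with the most UMIs in each role group, the 6 lowest and 4 highest ratios in each class, and the 3 highest and 3 lowest shares in S-high cells. Of other lists, the 3 genes with the most UMIs were named. A gene of the list of naive genes is not reported here, and the list was used without it. Further genes were named after their values were seen. Alternatives were other normalizations, cell filters, lineage rules, cuts, and cells or members left out. The other libraries and receptor sequences of the study were not used here.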

Additional observations from a re-analysis of the deposited data

Results flagged for a closer look

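Cells with more than 5000 genes enter the results above only where the upper limit on genes was lifted. Of these, 44 of 65 in the wild-type library (67.7%, exact interval 54.9 to 78.8) and 43 of 55 in the knockout library (78.2%, 65.0 to 88.2) were S-high, against 9.01 and 6.27% of the kept cells. Their summed level of the 45 genes was 6174 and 6716 CPM. The limit on genes thus removed cells with S-phase message from both libraries.

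The summed level of the 45 genes had log2 ratios of opposite sign in the classes, -0.59 in CD8 T cells and 0.22 in Tregs. The same held beyond counting error for 13 members, with the CD8 value given first and the Treg value second. They were Mcm4 (-0.62 and 0.48), Mcm7 (-0.68 and 0.34), Cdc45 (-1.26 and 0.51), Gmnn (-1.0 and 0.37), Pcna (-0.43 and 0.20), Pold3 (-0.46 and 0.53), Clspn (-0.50 and 0.65), 2810417H13Rik (-1.09 and 0.22), Rrm2 (-0.93 and 0.39), Hells (-0.57 and 0.22), Slbp (-0.38 and 0.20), Rad51ap1 (-0.89 and 0.44) and Brip1 (-0.41 and 0.50). Each of the 5 of these that were recomputed under alternatives (Cdc45, Clspn, 2810417H13Rik, Rrm2 and Slbp) had an interval that held 0 or turned sign under at least 1 of them, and the other 8 were not recomputed. The share of all genes with intervals on opposite sides of 0 was not counted. With 1 library per genotype whether the classes differ was not tested.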

How the results depend on the processing

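No paired analysis was possible because each genotype has 1 library and no comparison comes from a test, and for the same reason no replicate could be left out. Of 140 alternatives for the levels, medians, counts and shares, 104 moved the value by less than its counting error (or a count by less than 1.5 times), 35 moved it further and 1 turned its direction, and of 300 for 25 named members these were 258, 37 and 5. The cause of these moves was not tested. The 104 include alternatives that could not move a value. Every member passed the other minimums of 1, 20 and 100 UMIs per gene, so the medians and counts stayed the same by construction. The interval used for the CD8 median, -0.85 to -0.40, was also wider than that of the summed CD8 level, -0.62 to -0.56. A median thus had to move further to be counted as moved, and the 104 overstates how far the results were put to the test. Alternatives on transcript length, shared barcodes, named members and the other lists were chosen after seeing the data.

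The summed CD8 log2 ratio was -0.65 with TMM factors, -0.62 with median-of-ratios factors, -0.52 with equal weight per cell, -0.71 with the narrower filter (500 to 4000 genes and mitochondrial UMIs up to 10%), -0.43 with no upper limit on genes, -0.65 with the stricter lineage rule, -0.41 without cells rich in naive genes and -0.52 without 2810417H13Rik, Dut and Slbp. The Treg ratio was, for the first 6 of these, 0.17, 0.15, 0.14, 0.050, 0.17 and 0.018, then 0.12 with lineage set by more UMIs and 0.26 without cells rich in naive genes. CD8 over Treg in the wild type was 0.46 (narrower filter), 0.36 (stricter lineage), 0.39 (more UMIs), 0.61 (naive out) and 0.47 (without the 3 members), and in the knockout -0.12 (equal weight), -0.10 (no upper limit) and -0.064 (naive out).

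The CD8 median was -0.86 and the Treg median -0.0023 with the narrower filter. Members lower in CD8 T cells numbered 15 with no upper limit and 14 with naive out. Members higher in Tregs numbered 3 with median-of-ratios factors, the narrower filter, no upper limit or lineage by more UMIs, and 1 after correction for length, and 1 was lower with the narrower filter or the stricter lineage rule. Shares of all genes were not counted under these settings, so the counts of members lower or higher have no background there. With a cut of 15 UMIs the CD8 difference in S-high cells was -5.34 points. In CD8 T cells the G2/M ratio was -0.61 with no upper limit and -0.63 with naive out, that of other replication genes -0.28 and -0.27, and that of the brakes 0.32 with naive out. The G2/M ratio in Tregs was 0.18 with naive out. Treg ratios that turned were those of 2810417H13Rik (-0.15 with the narrower filter, -0.37 with stricter lineage), Rrm2 (-0.028 and -0.11) and Slbp (-0.0019 with the narrower filter).

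Depth limits members with few UMIs, such as Exo1 and Dscc1 in knockout CD8 T cells (35 and 37). A single cell held at most 15.5% of a member's UMIs in a class, for Ccne2 in knockout CD8 T cells.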

Other observations

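Cells that fell in neither class also carried the 45 genes. The 271 such cells of the wild-type library were at 3022 CPM (2943 to 3102) and the 271 of the knockout library at 2509 CPM (2436 to 2585), and 26 of 236 (11%) and 17 of 248 (6.85%) of those deep enough to be thinned were S-high. Both values lie between those of the CD8 T cells of the 2 libraries.

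Genes of CD8 T cells (Cd8a, Cd8b1, Nkg7, Ccl5 and Gzmk) summed to 12296 CPM (11865 to 12739) in S-high wild-type and 8105 CPM (7611 to 8622) in S-high knockout CD8 T cells, with Ccl5 giving 69593 of the list's 100423 UMIs in the wild-type class as a whole. Treg genes were at 3311 (3038 to 3602) and 3393 CPM (3140 to 3661), overlapping intervals, in S-high Tregs of the wild-type and knockout libraries.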
